A study of Mus musculus with 6 samples.

Results

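Runx1, Runx2 and Runx3 encode the mouse Runt-domain transcription factors, and the peaks described here are those of one deposited methylation peak list whose midpoint lies in the body of one of these 3 genes or within 20 kb of it. The list holds 84111 peaks, and 47 of them met this rule: 26 at Runx1, 6 at Runx2 and 15 at Runx3. The 3 genes were chosen by name and not by a cut on their peaks, but with earlier results of these data known. All lie on sequence that the list covers, among 15771 protein-coding genes there. A peak in the body or within 20 kb is common, found at 90.1% of those genes, so the presence of a peak at all 3 Runx genes is near the background.

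The study captured methylated DNA from primary chondrocytes, the cells of cartilage, by means of MBD2, a protein that binds methylated CpG, and sequenced it (MBD-seq). Cells came from knee articular cartilage of mice aged 3 to 5 postnatal days and were cultured. Per the labels, 3 cultures were from control mice (genotype given as Dnmt1 flox, with no Cre named) and 3 from conditional knockout (cKO) mice (Prx1-Cre;Dnmt1 flox/flox); both groups carry the floxed allele. Dnmt1 copies CpG methylation to newly made DNA strands, and Prx1-Cre is active in limb bud mesenchyme, from which limb cartilage, bone and connective tissue arise, so deletion is not limited to chondrocytes. The deposited list describes itself as regions of Dnmt1-mediated methylation and, per its peak names, was called on 3 merged datasets whose group is not named. It carries 1 set of values per peak and no value for any culture. Control and cKO could therefore not be compared at any Runx peak, no spread between cultures can be given, and the depth of each culture is unknown. An MBD-seq list holds no RNA levels, so the cell type named by the labels could not be checked against marker genes.

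The RUNX proteins bind DNA through the Runt domain, together with the partner subunit Cbfb, at sites with the core TGTGGT. Runx2 is required for osteoblast differentiation and drives the hypertrophic maturation of growth plate chondrocytes. Runx3 acts with Runx2 in that maturation and is also known for its roles in T cells and sensory neurons. Runx1 is best known as a regulator of blood stem cell formation and is also active in early cartilage. Each Runx gene has a distal promoter, P1, and a proximal promoter, P2, inside the gene, which give proteins with different N termini.

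The promoters are the fixed points for the peak positions below, and their CpGs are the sites that MBD2 can capture when methylated. The RefSeq promoter table for GRCm38.p6 matched 3 of 3 genes, with both promoters of Runx1 and Runx3 and with P1 of Runx2. Each sequence runs from 250 bases before to 50 bases after a start site, 5′ to 3′ on the gene's strand, with CpG dinucleotides in capitals.
Runx1 P1 (chr16:92826025-92826324, minus strand): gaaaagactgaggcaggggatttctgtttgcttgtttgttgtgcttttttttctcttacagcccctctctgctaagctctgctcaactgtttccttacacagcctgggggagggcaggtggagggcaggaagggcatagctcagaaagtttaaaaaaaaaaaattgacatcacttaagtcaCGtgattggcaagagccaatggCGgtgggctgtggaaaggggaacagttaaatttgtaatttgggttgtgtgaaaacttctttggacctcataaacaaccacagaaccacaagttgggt
Runx1 P2 (chr16:92697280-92697579, minus strand): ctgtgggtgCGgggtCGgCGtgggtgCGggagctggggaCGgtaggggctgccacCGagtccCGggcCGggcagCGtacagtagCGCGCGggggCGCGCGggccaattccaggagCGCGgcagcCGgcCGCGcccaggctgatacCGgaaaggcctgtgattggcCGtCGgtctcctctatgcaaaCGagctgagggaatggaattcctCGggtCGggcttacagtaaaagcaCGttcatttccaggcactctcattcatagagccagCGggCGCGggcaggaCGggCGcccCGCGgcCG
Runx2 P1 (chr17:44814578-44814877, minus strand): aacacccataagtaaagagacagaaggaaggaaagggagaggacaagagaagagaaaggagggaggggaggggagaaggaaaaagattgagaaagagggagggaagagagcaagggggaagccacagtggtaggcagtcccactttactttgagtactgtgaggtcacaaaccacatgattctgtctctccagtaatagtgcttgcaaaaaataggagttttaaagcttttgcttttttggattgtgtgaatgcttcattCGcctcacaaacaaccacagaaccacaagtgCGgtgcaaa
Runx3 P1 (chr4:135120395-135120694, plus strand): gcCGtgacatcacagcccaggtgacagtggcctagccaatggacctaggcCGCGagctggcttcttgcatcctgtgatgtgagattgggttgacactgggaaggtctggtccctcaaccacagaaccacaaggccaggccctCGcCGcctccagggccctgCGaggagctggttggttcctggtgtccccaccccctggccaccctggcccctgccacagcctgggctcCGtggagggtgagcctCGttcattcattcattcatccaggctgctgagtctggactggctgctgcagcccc
Runx3 P2 (chr4:135152295-135152594, plus strand): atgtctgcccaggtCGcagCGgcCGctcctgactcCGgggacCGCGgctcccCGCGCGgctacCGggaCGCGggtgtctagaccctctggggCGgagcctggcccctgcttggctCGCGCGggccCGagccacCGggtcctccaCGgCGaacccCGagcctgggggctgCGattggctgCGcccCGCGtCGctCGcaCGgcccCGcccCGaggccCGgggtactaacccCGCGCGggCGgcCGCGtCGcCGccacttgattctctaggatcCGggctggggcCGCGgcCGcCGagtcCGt

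The proximal promoters held more CpGs than the distal ones. Runx1 P1 and Runx2 P1 held 2 CpGs each in their 300 bases, and Runx3 P1 held 8. Runx1 P2 held 35 and Runx3 P2 held 45, against a median of 7 over the 24392 promoters of the table on covered sequence. The observed over expected CpG ratio was 1.01 at both P2 windows, and 0.137, 0.143 and 0.264 at P1 of Runx1, Runx2 and Runx3.

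The 3 P1 windows also share a stretch of 18 bases with 2 copies of the RUNX site in its ACCACA orientation. It is shown here with 8 flanking bases on each side where the window allows and with RUNX sites (TGTGGT or TGCGGT, searched on both strands) in capitals.
Runx1 P1 (chr16:92826025-92826056, minus strand): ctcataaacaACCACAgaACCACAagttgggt
Runx2 P1 (chr17:44814581-44814614, minus strand): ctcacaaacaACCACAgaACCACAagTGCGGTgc
Runx3 P1 (chr4:135120501-135120534, plus strand): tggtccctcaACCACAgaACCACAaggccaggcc
The stretch was picked as the longest common to these 3 windows, so its presence there was given. Of the 24392 promoters 4 held it, namely these 3 and that of Gm16225, a lncRNA gene 0.269 kb from the Runx3 start. Whether the Gm16225 window overlaps that of Runx3 P1 and holds the same copy was not tested. The stretch begins 26 bases after the start site of Runx1 and 21 bases after that of Runx2, but 136 bases before that of Runx3 (-136). TGTGGT on either strand occurred at least once in 16.4% and at least 2 times in 1.73% of all promoter windows, and not at all in either P2 window. These are matches of letters and were not tested for binding.

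None of the 5 Runx promoter windows overlapped a peak, and no peak midpoint lay within 1 kb of any of the 5 start sites. Across all 24392 start sites 9.14% had a midpoint that close. The shares differed with CpG number: 5.27% of start sites with 0 to 2 CpGs, 14.2% of those with 3 to 8 and 1.43% of those with 35 or more. That the CpG-rich P2 windows of Runx1 and Runx3 are free of peaks is thus shared with most promoters of their kind.

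The nearest peak lay at very different distances. Measured to the midpoint, it was 3.37 kb upstream of Runx1 P1, 8.34 kb downstream of Runx1 P2, 3.49 kb upstream of Runx3 P1 and 1.28 kb upstream of Runx3 P2, and 72.0 kb downstream of Runx2 P1. Runx1 P2 stood in the middle of promoters with a similar CpG number (up to 20% fewer or 25% more), of which 50.03% had a more distant nearest peak. Runx2 P1 and Runx3 P2 stood at opposite ends. Among 2190 promoters with as few CpGs as Runx2 P1, 3.01% were farther from a peak and the median distance was 11.1 kb. Among 1602 promoters with as many CpGs as Runx3 P2, 97.9% were farther from a peak and the median was 9.06 kb.

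**Figure D1:**
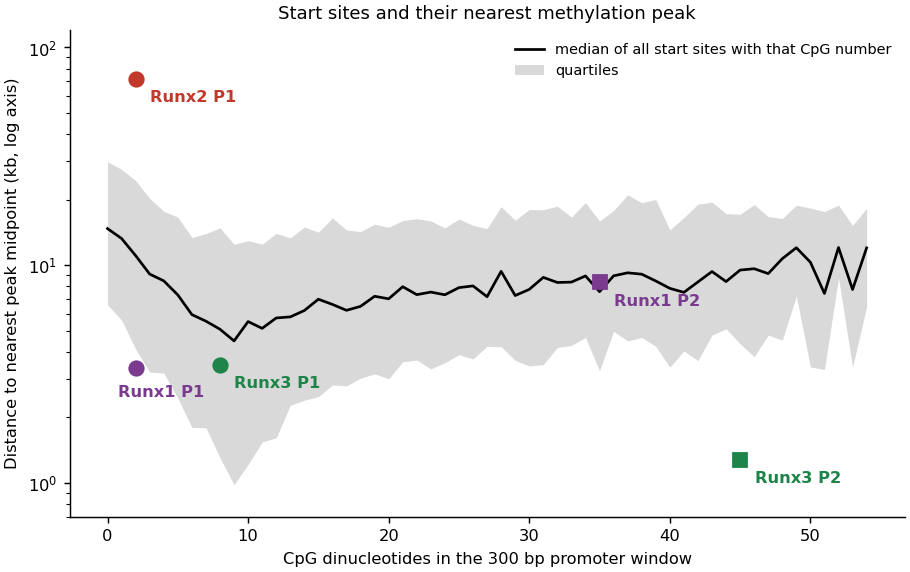
Distance from each start site to the nearest peak midpoint (kb, log axis) against the number of CpG dinucleotides in its 300 bp window; the line and band give the median and quartiles of all start sites with that CpG number (numbers with at least 20 start sites), circles P1 and squares P2. Runx2 P1 lies far above the band at 72.0 kb, Runx3 P2 below it at 1.28 kb, and Runx1 P2 within it at 8.34 kb.

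Runx1 had many peaks for its length. The gene spans chr16:92601466-92826074 on the minus strand (gene 12394, 224.6 kb), and 24 peaks lay in its body and 2 upstream of it. The 415 protein-coding genes of similar length (up to 20% shorter or 25% longer) had a median of 9 peaks in the body or within 20 kb, with quartiles of 6 and 15, and 99.8% of them had at least 1. Of these, 90.1% had fewer peaks than Runx1 and 9.16% had more. The 3 genes nearest to it in length were Sfmbt2 with 9 peaks, Abcc4 with 59 and Rapgef2 with 11, and the most in the band was 70, in the muscle gene Ttn (titin).

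Runx2 had few. It spans chr17:44495987-44814797 on the minus strand (gene 12393, 318.8 kb), and all 6 of its peaks lay in the body, with none in the 20 kb on either side. The 278 genes of similar length had a median of 10 peaks and quartiles of 6 and 17, and 99.3% had at least 1; 23.7% had fewer than Runx2, 4.32% as many and 71.9% more. Runx2 thus sat at the lower quartile of its length class, not outside it. The nearest in length were Itgbl1 with 16 peaks, Gria1 with 4 and Pld5 with 7, and the most was 85, in Tiam1.

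Runx3, the shortest, was well filled. It spans chr4:135120645-135177990 on the plus strand (gene 12399, 57.3 kb), with 9 peaks in the body, 1 upstream and 5 past the 3′ end. The 1375 genes of similar length had a median of 5 peaks and quartiles of 3 and 9, 95.9% had at least 1, and 92.6% had fewer than Runx3. In the body alone, with 9 peaks against a median of 3, the share with fewer was 86.6%. The nearest in length were Ube2r2 with 8 peaks, Fbxo16 with 3 and Xpnpep3 with 5, and the most was 39, in Gcn1. Per 100 kb of body the 3 genes held 10.7 (Runx1), 1.88 (Runx2) and 15.7 (Runx3) peaks, against medians of 3.45, 2.69 and 5.21 in their length classes.

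**Figure D2:**
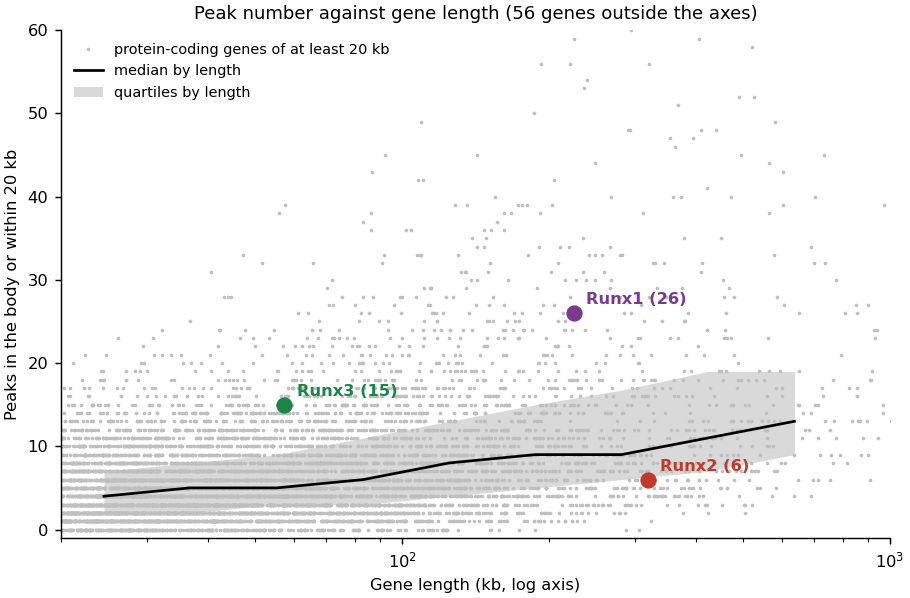
Number of peaks in the body or within 20 kb (linear axis) against gene length (log axis) for protein-coding genes of at least 20 kb (grey points; 56 lie outside the axes), with the median and quartiles by length. Runx1 (26 peaks) and Runx3 (15) lie above the quartile band and Runx2 (6) at its lower edge.

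At Runx1 the peaks gathered in the 3′ part of the gene. Between P1 and P2, over 128.7 kb, lay 7 peaks, or 5.44 per 100 kb. From P2 to the 3′ end, over 95.9 kb, lay 17, or 17.7 per 100 kb, a density 3.26 times as high. At Runx3 the corresponding densities were 12.5 (4 peaks over 31.9 kb) and 19.7 per 100 kb (5 peaks over 25.4 kb), a ratio of 1.57. A higher density after the last start was usual: it was found in 265 of 350 other protein-coding genes (75.7%) whose first and last listed starts lie at least 20 kb apart, with at least 20 kb after the last and at least 1 peak. In 14.6% of them the difference exceeded that of Runx1, and in 27.1% that of Runx3.

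**Figure D3:**
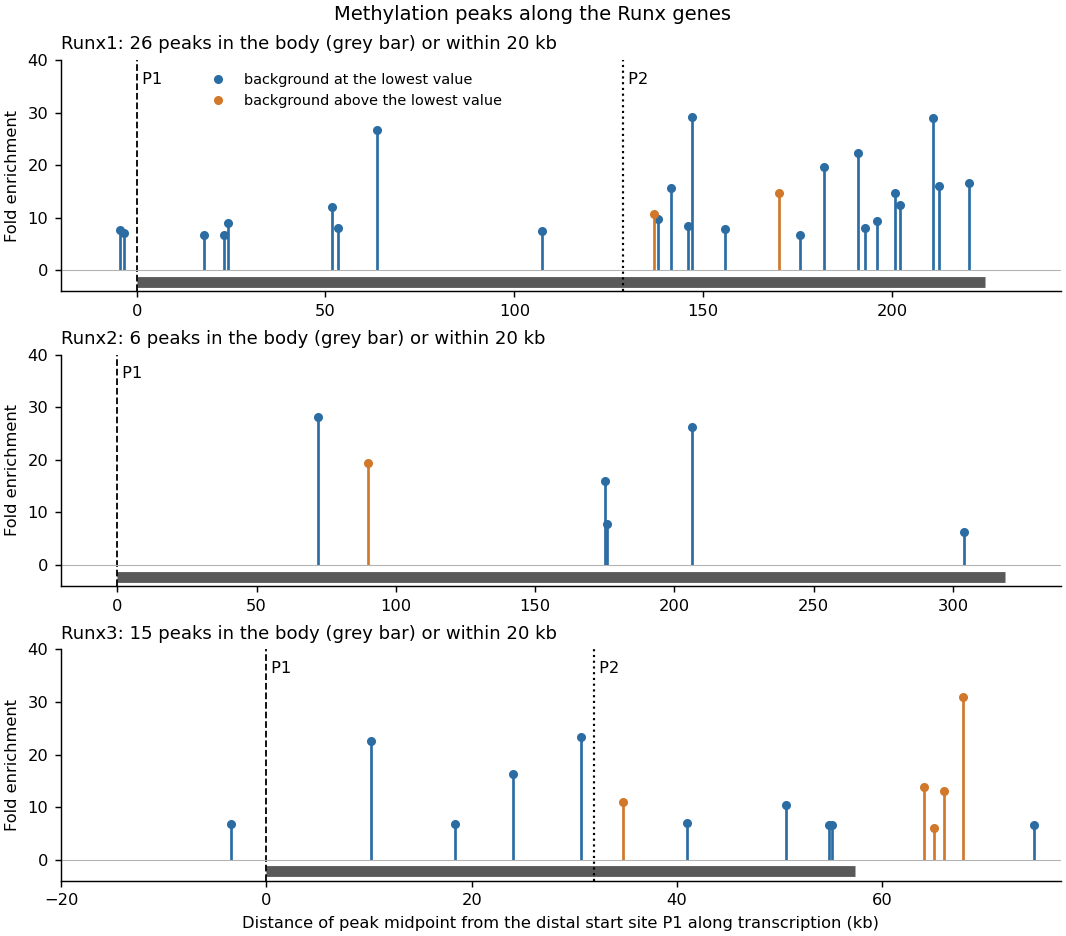
Every peak of the 3 genes, placed by its distance from P1 along transcription (kb; each gene has its own scale) and drawn to its fold enrichment; grey bars are gene bodies, dashed and dotted lines the start sites P1 and P2, and orange marks peaks whose recovered background was above the lowest of the list. Runx1 has 17 of 26 peaks after P2, Runx2 has none in the first 72.0 kb, and 4 orange peaks follow the end of Runx3.

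The fold enrichment printed for each peak is the authors' peak caller's value, the reads piled up at the summit over a local background. The pileup and background were recovered from the fold and p-value of each peak, in reads (scaled reads for the background). The lowest background in the list was 6.37 reads, and 82.98% of Runx peaks had it, against 74.98% of all peaks and 85.1% of peaks in protein-coding bodies. At that background the fold measures only the pileup. A higher background was found at 2 of 26 peaks of Runx1, 1 of 6 of Runx2 and 5 of 15 of Runx3.

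Along Runx1, from the 5′ side, the 2 peaks upstream of P1 were weak, with folds of 7.60 and 7.19 (55 and 52 reads). Between the promoters the folds were 6.65, 6.65, 8.95, 12.1, 8.14, 26.7 and 7.46, so that a single peak there exceeded 13.2, the median fold of the whole list. That peak, of 454 bp at chr16:92762198-92762651 with a pileup of 196 reads, lies 63.6 kb downstream of P1 and inside the lncRNA gene Gm30281, whose 5.03 kb lie wholly in Runx1. After it came the longest peak-free stretch of the gene, 43.4 kb, and the peak-free stretch that contains P2 measured 29.4 kb.

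After P2 the Runx1 peaks had a higher median fold, 14.7 over 17 peaks against 8.14 over the 7 between the promoters. Their median width was 354 bp against 224 bp. The folds overlap widely, with ranges of 6.65 to 29.2 after P2 and 6.65 to 26.7 between the promoters. Whether such a contrast is usual in other genes was not tested. The first peak past P2, at chr16:92688706-92689273, had the highest pileup of the gene, 349 reads, but over a background of 31.6 reads, which gave a fold of 10.7. The highest folds were 29.2 at chr16:92678664-92679198 (18.4 kb after P2, 214 reads) and 29.0 at chr16:92614849-92615656 (82.1 kb after P2, 213 reads). The latter, of 808 bp, was the widest peak of the gene. The other 14 peaks after P2 had folds from 6.65 to 22.4.

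The 6 peaks of Runx2 were far apart. In order from the 5′ side their folds were 28.1, 19.5, 16.0, 7.87, 26.2 and 6.24, and their widths 460, 642, 445, 180, 576 and 106 bp. Thus 4 of the 6 exceeded the list's median fold, whereas 10 of 26 did so at Runx1 and 5 of 15 at Runx3. The first and strongest lies at chr17:44742398-44742857 with 206 reads, 72.0 kb after P1. The second, at chr17:44724449-44725090, had the highest pileup, 256 reads, over a background of 12.2 reads. The third and the fourth lie within 1 kb of each other, 175.0 and 176.0 kb after P1, and the fifth, of 192 reads, lies at chr17:44607845-44608420.

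A stretch of 242.3 kb without a peak, from chr17:44742857 to chr17:44985192, contains Runx2 P1. It takes in the first 72 kb of the gene and continues upstream, and of all 83952 gaps between neighbouring peaks of a chromosome 342 (0.407%) were longer; the median gap was 8.60 kb. The gene Supt3, a component of a histone acetyltransferase complex, overlaps the 5′ part of Runx2 by 37.7 kb, and no peak lay in the overlap. The next gaps in Runx2 were 97.0 and 84.6 kb, longer than all but 4.65% and 5.97% of gaps. These were picked as the longest gaps that touch the gene, and a long gene with few peaks must hold long gaps. They were not compared with the longest gaps of genes of similar length. A given position also falls more often in a long gap than in a short one. Whether sequence that could not be mapped lies in these stretches was not tested.

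At Runx3 the 5 peaks above the list's median fold stood between the promoters and past the gene, among others below it. The upstream peak had a fold of 6.78, and those between P1 and P2 had folds of 22.5, 6.78, 16.3 and 23.3. The last of these, at chr4:135150705-135151823, measured 1119 bp, was the widest of all Runx peaks and was wider than 97.3% of the list. Its edge lies 0.722 kb upstream of the P2 start. After P2 the 5 peaks had folds of 11.0, 7.05, 10.4, 6.51 and 6.51, all below the list's median. The P2 start thus lies in a peak-free stretch of 3.28 kb.

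Past the 3′ end of Runx3 lay a run of 4 peaks in 4.49 kb, chr4:135184375-135188861, between 6.71 and 10.5 kb from the gene. All 4 had a raised background, of 22.0, 97.3, 9.25 and 10.3 reads, under pileups of 319, 590, 133 and 347 reads. Their folds were 13.9, 6.01, 13.1 and 30.8, which made the last the highest fold and the second the lowest of all 47 Runx peaks. Without peaks of raised background Runx3 had 10 peaks, and 81.7% of its length class had fewer, counted the same way. The next gene on this side is Clic4, an intracellular chloride channel family member, 36.0 kb from the end of Runx3.

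**Figure D4:**
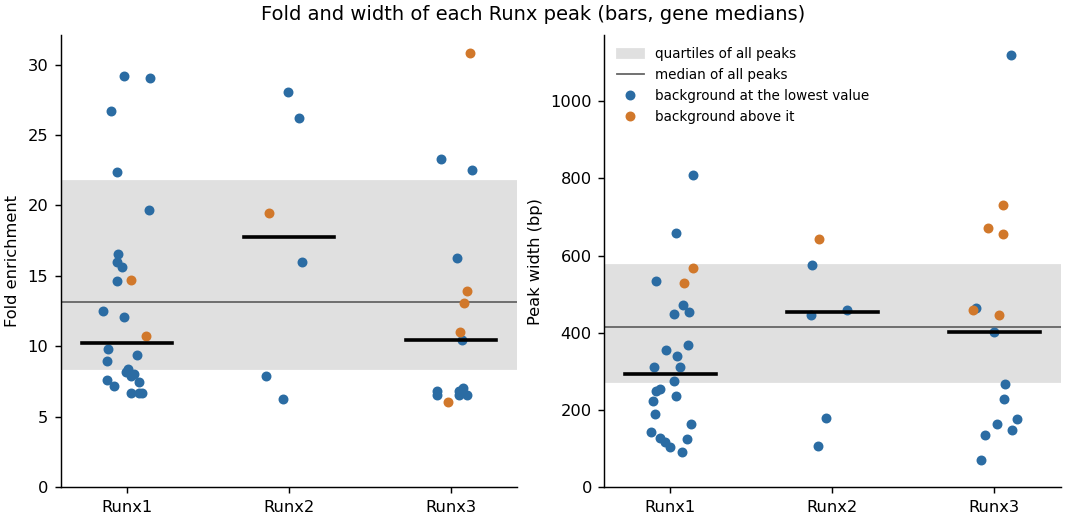
Fold enrichment and width (bp) of each Runx peak by gene (points; black bars are gene medians), with the median and quartiles of all 84111 peaks in grey. The medians of Runx1 (fold 10.3, 292 bp) and Runx3 (10.4, 401 bp) lie below those of the list (13.2, 415 bp), and those of Runx2 (17.7, 452.5 bp) above, and the points of the 3 genes overlap. Peaks in protein-coding bodies had medians of 13.7 and 393 bp, and the median width of Runx3 lies above the latter.

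By gene, the fold had a median of 10.3 at Runx1 (range 6.65 to 29.2), 17.7 at Runx2 (6.24 to 28.1) and 10.4 at Runx3 (6.01 to 30.8), against 13.2 in the whole list (quartiles 8.41 and 21.7). The ranges of the 3 genes overlap almost fully. A −log10 q under 50, in a list that starts at 20.004, was found for 13 of 26 peaks at Runx1, 2 of 6 at Runx2 and 6 of 15 at Runx3, and for 26.7% of all peaks. Under 30 were 5 of 26, 1 of 6 and 6 of 15, and 11.4% of all peaks. The first peaks outside the 20 kb windows had folds of 11.9 and 7.19 at Runx1 (23.2 kb on the 5′ side and 25.5 kb on the 3′ side), 6.38 and 6.51 at Runx2 (170.4 and 22.9 kb) and 8.55 and 17.4 at Runx3 (40.01 and 24.0 kb). The outermost inside had folds of 7.60 and 16.6 at Runx1, 28.1 and 6.24 at Runx2 and 6.78 and 6.51 at Runx3.

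The 3 Runx genes lie in paralogous regions, next to Clic genes and near Rcan genes, which regulate calcineurin. Clic6 (60.2 kb from Runx1) had 11 peaks, Clic5 (215.8 kb from Runx2) had 6 and Clic4 had 6, in the body or within 20 kb. Relative to genes of their own length, 84.9%, 32.7% and 52.2% had fewer. The order, highest beside Runx1 and lowest beside Runx2, rests on 3 genes. Rcan1, on the chromosome of Runx1 and named after its values were seen, had 24 peaks in the body or within 20 kb, more than 97.9% of its length class. Rcan2 had 8 and Rcan3 had 7, more than 37.2% and 72.3% of theirs.

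Genes that work with the RUNX factors were read from lists of cofactors, direct or proposed targets and upstream regulators. Of 55 genes, including the 6 Clic and Rcan genes, 45 lay on covered sequence, and Cbfb was not analysed here. A peak in the body was found in 36 of the 45 (80.0%), against 64.7% of all protein-coding genes, which differ from the lists in length. By list these were 11 of 14 cofactors, 13 of 17 targets, 6 of 8 upstream regulators and all 6 Clic and Rcan genes. The median number in the body or within 20 kb was 3 for 14 cofactors, 4 for 17 targets and 3 for 8 upstream regulators, and 4 for all genes. Relative to genes of their own length, 29 of the 45 (64.4%) had a share with fewer peaks under 50%, as did 55.8% of all protein-coding genes. A share over 90% was found for 7 (15.6%), and for 8.50% of all. These 7 were 2 cofactors, 3 targets, 1 upstream regulator and Rcan1. Among them Stub1 had 10 peaks, and Bglap (0.972 kb) and Bglap2 (0.966 kb) 5 each, none in their own bodies. Hoxa2 had 11, with 1 in the body. Smurf1 had 18, with 6 in the body, and Bcl11b had 24, with 19 in the body. Whether Bglap and Bglap2 share peaks was not tested.

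Of the 32 list genes with a promoter entry, 3 had a peak midpoint within 1 kb of a start. That is near the background, which was 9.94% of all genes with an entry. At Vegfa, the angiogenic growth factor that hypertrophic chondrocytes release, the peak at chr17:46025043-46025643 had a fold of 32.2 and lay 0.180 kb from the nearer of its listed starts. At Tnfsf11 (RANKL, the signal for osteoclast formation) the peak at chr14:78308747-78309120 had a fold of 13.2. At Hoxa2, a homeobox gene known to repress Runx2 in the branchial arches, the peak at chr6:52165113-52165225 had a fold of 6.51. All 3 were at the lowest background. None of the 11 cofactors with an entry had such a peak, a number too small to set them apart from that background.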

How the data were processed

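DNA of 6 cultures (3 control, 3 cKO) was enriched with MBD2 and sequenced. Per the submitters' processing notes, fastp, Bowtie2 and MACS2 and the builds mm10 and GRCm38 were used; versions and settings are not given in the sources used here. Per the peak names, 3 datasets were merged before calling. Deposited with each peak are a fold enrichment (a ratio to the local background), −log10 p and −log10 q values, and a score, found to be 10 times the −log10 q cut to a whole number; start, end and summit are positions, printed 1-based. The list covers chromosomes 1 to 5, 10 to 19 and part of 6; 1 incomplete line was left out.

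Positions of genes and promoters came from RefSeq tables of GRCm38.p6. Genes counted as covered beyond the first 3 Mb of a chromosome. Peaks were placed by midpoint. For each peak the whole-number pileup was solved from fold = (pileup + 1)/(background + 1) and a Poisson p; 99.97% of peaks, and 47 of 47 Runx peaks, matched within 1% of the step between whole pileups. On 5000 simulated peaks made with these same formulas 100% were recovered, which checks the solving step and not the formulas. Python 3.11.15, numpy 2.4.6, pandas 2.3.3 and scipy 1.17.1 were used. No test was run, since no value belongs to a culture; the planned control against cKO test and its fits without a replicate were not run, and shares of genes are descriptions. Alternatives changed the threshold, the window, the placement and merging of peaks, and the length class.

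Named genes were the 3 Runx genes with all their peaks, the 3 genes nearest to each in length, the gene with most peaks in each length class, the neighbours, and those list genes whose start has a peak midpoint within 1 kb. The Rcan genes and Cbfb were named outside this rule, as were Stub1, Smurf1, Bglap, Bglap2 and Bcl11b, these last after their values were seen. The members and lists were chosen with earlier results of these data known.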

Additional observations from a re-analysis of the deposited data

How the results depend on the processing

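No paired analysis was possible because values are given per peak and not per culture, and no replicate could be left out. Intervals of 95% were behind the comparisons of median folds, over the peaks of each gene, and of shares, over the genes of similar length. They cover no spread between cultures. Peak numbers and distances had no interval. Placing peaks by summit, by an overlap of at least 1 bp or in a 10 kb window, using genes of 0.5 to 2 times the length, and counting peaks per 100 kb moved no result. In every alternative run the share of genes with fewer peaks stayed over 50% for Runx1 and Runx3 and under 50% for Runx2. Genes with as many peaks do not count in that share, so a share under 50% need not mean below the middle. No peak midpoint or summit came within 1 kb of a start (the nearest peak edge was 0.722 kb from Runx3 P2). Stricter lists have fewer peaks by construction. At a −log10 q of at least 50, Runx1 had 13 peaks (median fold 16.0) and Runx3 9; 80.0%, 18.7% and 85.1% of genes of similar length had fewer peaks than Runx1, Runx2 and Runx3, and the nearest peak was 23.2 kb from Runx1 P1 and 10.2 kb from Runx3 P1. At 100, Runx1 had 9 peaks (median fold 19.7) and Runx3 8; 81.2% and 36.0% had fewer than Runx1 and Runx2, and the distances were 63.6 and 10.2 kb. At or above the median fold of the list, Runx1 had 10 peaks (median 18.1) and Runx3 5 (median 22.5); the shares were 83.1%, 38.5% and 71.9%, and the distances 63.6 kb (Runx1 P1), 12.8 kb (Runx1 P2) and 10.2 kb (Runx3 P1). With peaks at the lowest background alone the shares were 93.01%, 32.4% and 81.7%, and Runx1 P2 was 9.21 kb from a peak. Merging peaks within 500 bp gave 8.70 kb for Runx1 P2 and 87.9% for Runx3. For Runx3 the share was also 86.6% in the body alone (9 peaks), 89.4% in a 50 kb window and 94.1% among all genes. At each of these 3 stricter thresholds Runx2 had 4 peaks (median fold 22.8) in place of 6 (17.7). Its peak number stood at the limit of a 1.5-fold change, up to which a number counted as not moved. The interval of its median fold, 6.24 to 28.1, spans all 6 of its folds, so no choice among them could move it. How many peaks of each of the 3 genes are counted thus depends on the threshold of the list.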
